A study of Homo sapiens with 15 samples.

Results

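The genes described here are interferon-induced genes and genes of interferon signalling, taken from a list of 41 symbols. A gene on the list counted as a member where either deposited count table held it, and the list itself was drawn up with earlier results of these data known. In all, 39 of the 41 were listed, among 16321 genes in either table, and IFIT1 and IFI44 were in neither. The cells were IHA, an immortalized line of human astrocytes of fetal origin that carries SV40 and is sold by abm, and doxycycline at 1 µg/ml switched on a mutant IDH1 in them. The series' design text gives the mutant as the R132H form, an enzyme that makes 2-hydroxyglutarate in place of alpha-ketoglutarate, and compares induced cells with untreated ones. Bulk MARS-seq was used, which counts the 3′ ends of transcripts and uses unique molecular identifiers (UMIs) so that each count stands for 1 molecule. The 15 libraries were 6 without doxycycline, 4 at day 3 of doxycycline and 5 at day 7. Each title names b1 or b2, which was treated as a batch: 3 untreated libraries and 1 day 7 library were b1, and 3 untreated, 4 day 3 and 4 day 7 libraries were b2. The genotype label read wild-type IDH1 in every sample, the labels gave no day for the untreated cells, and no group received doxycycline without the inducible gene, so effects of doxycycline and of mutant IDH1 cannot be told apart. Nothing in the labels says that libraries of a group came from separate cultures, so p-values measure only the spread between these libraries.

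Values came from 2 tables of UMI counts. The first, called the day 7 table here, held all untreated and day 7 libraries (11 libraries, 2573290 to 5567651 UMIs each), and the second, the day 3 and day 7 table, held the libraries of all 3 time points (11 libraries, 1816599 to 4656705 UMIs each), all taken as b2. For 2 of its untreated libraries, X1 and X2, b2 was inferred: b1 and b2 samples share those descriptions, and every other column of the table is b2. All day 3 comparisons rest on that reading. Levels are given as CPM, UMIs per 1000000 after TMM scaling, and a gene passed the test where its Benjamini-Hochberg adjusted p, over all genes tested, was under 0.05. The induced gene itself did not pass: on the log2 scale IDH1 differed by 0.22 ± 0.11 (SE, adjusted p = 0.178 by edgeR) at day 7 and by 0.21 ± 0.14 (SE, adjusted p = 0.494 by edgeR) at day 3. These counts cannot part the mutant transcript from the cells' own. Of 12 astrocyte markers, 8 were listed in the day 7 table, led by VIM and CD44, while GFAP, AQP4, SLC1A2 and ALDH1L1 were listed in neither table. Of 11 leukocyte markers only CD68 and CSF1R were listed. Their summed level was 31.7 to 44.4 CPM in the untreated libraries, 35.1 in the day 7 b1 library and 55.6 to 61.5 in the day 7 b2 libraries, and its part in the results below was not tested. The endothelial markers CLDN5 and TIE1, the ones listed of 5, summed to 13.7 to 21.2 CPM in the untreated libraries, 9.56 in the day 7 b1 library and 7.20 to 11.5 in day 7 b2. In the day 3 and day 7 table they summed to 14.3 to 19.6 CPM untreated, 5.07 to 13.5 at day 3 and 7.29 to 10.6 at day 7, and their part was not tested either. Most of the sum was TIE1 (6.91 to 19.4 CPM over the day 7 table). CLDN5 was near the floor (0.29 to 1.80 CPM), so its direction is not shown. The fibroblast and pericyte markers THY1, PDGFRB and PDGFRA summed to 79.8 to 93.9 CPM in untreated b1 and 62.6 in the day 7 b1 library. In b2 they summed to 279 to 297 CPM untreated and 179 to 295 at day 7.

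Type I interferons are secreted by cells that sense foreign or misplaced nucleic acid. They bind the receptor chains IFNAR1 and IFNAR2, whose kinases JAK1 and TYK2 phosphorylate STAT proteins, and of these STAT2 joins IRF9 in the complex ISGF3. ISGF3 binds the interferon-stimulated response element (ISRE) in promoters of antiviral genes, many of which are also kept at a low level of expression without infection. Interferon gamma acts through a separate receptor, of which IFNGR1 is a chain, and through the gamma activated site (GAS). Astrocytes both make and answer type I interferon in the infected brain.

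The response element is a sequence that many of these genes share, so the promoters of 6 members are shown: those with the smallest day 7 p-values among the members that passed the test and held a match. Capitals mark each match to the ISRE core, searched on both strands as GAAA, any 2 bases and GAAA again, within a window of 250 bases before to 50 bases after each start site in RefSeq (GRCh38.p14). Each stretch is written 5′ to 3′ on the strand of its gene.
EIF2AK2: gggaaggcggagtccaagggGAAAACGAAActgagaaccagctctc
IFITM3: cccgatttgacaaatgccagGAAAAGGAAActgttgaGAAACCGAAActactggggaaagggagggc
ISG20: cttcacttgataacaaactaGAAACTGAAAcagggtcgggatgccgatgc
PARP14: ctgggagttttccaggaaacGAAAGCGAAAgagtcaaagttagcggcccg
IFI6: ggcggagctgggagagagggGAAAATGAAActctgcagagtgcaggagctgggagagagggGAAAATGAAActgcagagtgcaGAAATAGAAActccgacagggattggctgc
OAS3: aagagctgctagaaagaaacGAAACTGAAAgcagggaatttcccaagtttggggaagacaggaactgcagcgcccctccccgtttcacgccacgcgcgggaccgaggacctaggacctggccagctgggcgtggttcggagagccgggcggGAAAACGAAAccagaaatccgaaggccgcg

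The EIF2AK2 stretch lies at chr2:37156961-37157006 on the minus strand, and its match starts 6 bases before the start site and runs past it. The IFITM3 stretch, at chr11:320866-320932 on the minus strand, holds 2 matches, and the IFI6 stretch, at chr1:27672256-27672368 on the minus strand, holds 3. Those of ISG20 (chr15:88638927-88638976 on the plus strand) and PARP14 (chr3:122680790-122680839 on the plus strand) hold 1 each. In OAS3, at chr12:112938311-112938491 on the plus strand, 2 matches lie far apart. Of 34 members with a promoter in the RefSeq table, 21 (61.8%) held a match, against 1195 of 27305 genes (4.38%). The looser GAS core, TTCNNNGAA, which can overlap the other motif, was in 9 of the 34 (26.5%) against 9.38% of all genes. Among members that passed the test at day 7, 8 of 11 with a promoter in the table held the ISRE core, and UBE2L6, SP100 and IFI35 did not. Among tested members that did not pass, 8 of 17 held it. PARP9 and DTX3L, which start 339 bp apart on opposite strands, share 1 match at chr3:122564332-122564341. A match is a run of letters in a window and does not show that ISGF3 binds there.

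At day 7 of doxycycline more of these genes were lower than higher against untreated cells. Of 34 members tested in the day 7 table, 11 fell and 1, ISG20, rose, where 7.28% of all 12449 genes tested fell and 8.43% rose. The genes that fell were IFITM2 and IFITM3 (membrane proteins that block virus entry), EIF2AK2 and OAS3 (enzymes that double-stranded RNA switches on), UBE2L6 (the enzyme that passes ISG15 to its targets), PARP14 and DTX3L (ADP-ribosylation), SP100 (nuclear bodies), and MX1, IFI6 and IFI35. The largest falls were those of IFITM2, 2.62-fold, and MX1, 2.10-fold. Of the 34, 26 had a log2 change below 0 (76.5%, against 53.0% of all genes tested), and their median was -0.29 against -0.02. At an unadjusted p under 0.05 the count was 18 of 34 (52.9%, against 29.8% of all genes tested). In these bulk libraries fewer cells expressing a gene and less RNA per cell cannot be told apart.

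**Figure D1:**
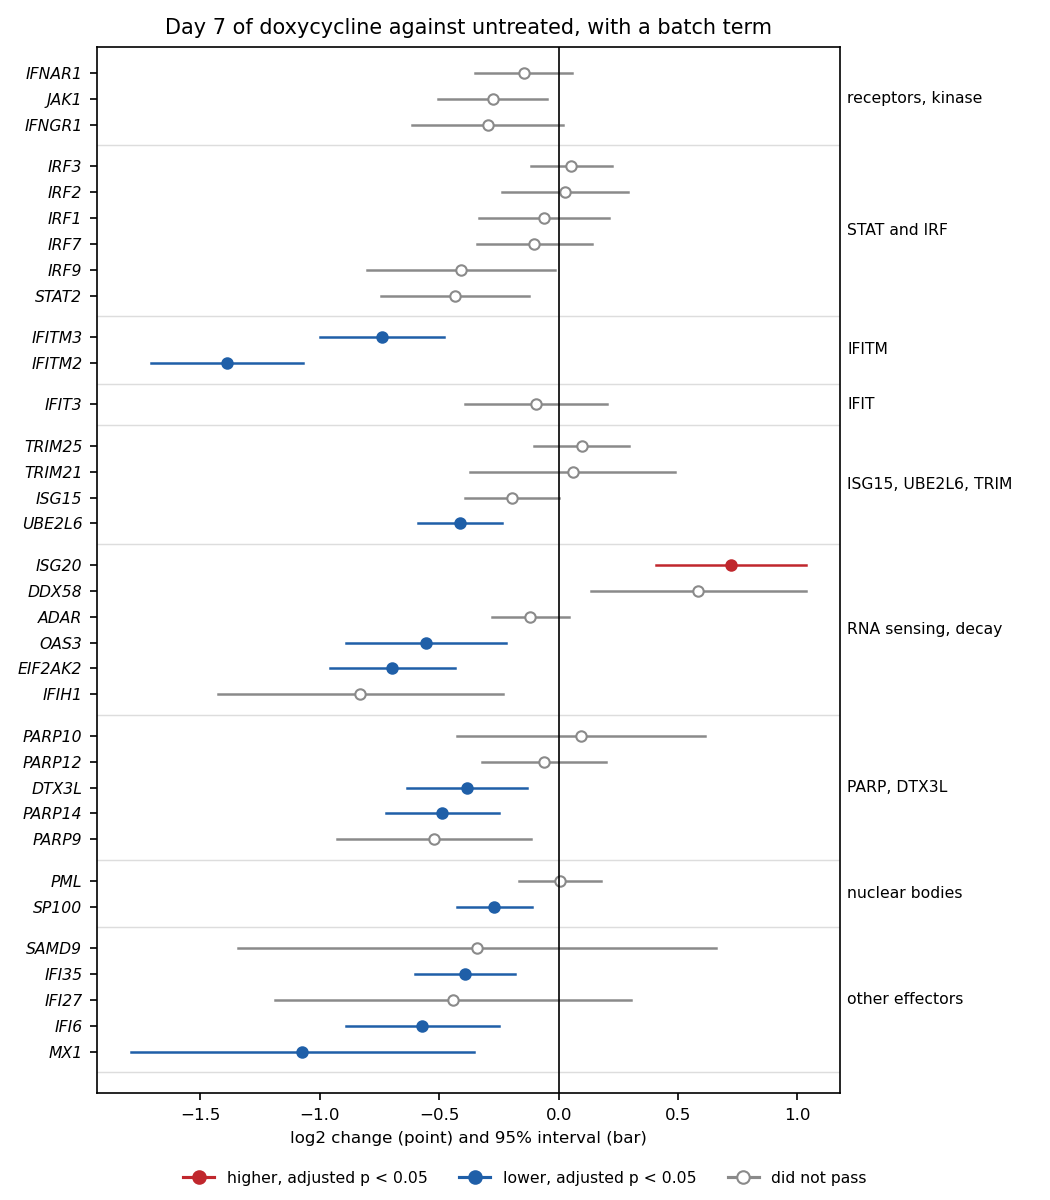
Log2 change of each tested member at day 7 against untreated cells (x axis, points with 95% intervals), grouped by role (y axis). Filled points passed the test: 11 members lie below 0, IFITM2 farthest left at -1.39, and of the filled points ISG20 alone lies above 0.

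IFITM proteins sit in cell membranes and stop enveloped viruses from fusing. IFITM3 (chr11:319669-327537, minus strand, GRCh38) stood at 223, 204 and 201 CPM in untreated b1, 196, 196 and 206 in untreated b2, 188 in the day 7 b1 library and 106, 91.9, 93.9 and 106 in day 7 b2. All 4 day 7 b2 libraries were below every untreated library, and the day 7 b1 library was just under the lowest untreated b1 library. Its log2 change was -0.74 ± 0.12 (SE, adjusted p = 0.00102 by edgeR). IFITM2 (chr11:307631-315272, plus strand), a close relative, stood at 19.1, 16.0 and 17.1 CPM in untreated b1, 20.4, 23.0 and 20.2 in untreated b2, 9.96 in the day 7 b1 library and 7.49, 8.07, 6.11 and 7.58 in day 7 b2. No day 7 library of IFITM2 reached an untreated one, and b2 went from 21.2 ± 1.55 CPM (SD, n = 3) to 7.31 ± 0.842 CPM (SD, n = 4). The log2 change was -1.39 ± 0.15 (SE, adjusted p = 1.47e-06 by edgeR). Both calls held under each of the 20 alternatives run. The transcripts of IFITM2 and IFITM3 are identical over 80.7% of their alignment and over 75.0% of that of their last 200 bases, so reads may be split between them and the values of each are uncertain.

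The receptor chains and the kinase did not pass the edgeR test at day 7, and 1 of the 3, JAK1, was under 0.05 before adjustment. IFNAR1, the receptor chain for type I interferon, stood at 27.2, 26.9 and 25.7 CPM in untreated b1, 35.2, 36.1 and 37.8 in untreated b2, 25.9 in the day 7 b1 library and 35.8, 30.3, 33.2 and 28.8 in day 7 b2, with a log2 change of -0.15 ± 0.10 (SE, adjusted p = 0.341 by edgeR). IFNGR1 stood at 16.9, 11.3 and 15.5 CPM in untreated b1, 22.8, 16.4 and 24.5 in untreated b2, 10.8 in the day 7 b1 library and 13.9, 18.7, 20.4 and 16.3 in day 7 b2, with -0.30 ± 0.15 (SE, adjusted p = 0.198 by edgeR). The day 7 libraries overlapped the untreated ones of b2 in both genes. For IFNAR1 the sign in b2 depended on the table: -0.18 ± 0.11 (SE) here and 0.21 ± 0.16 (SE) in the day 3 and day 7 table. JAK1, the kinase that both receptors use, stood at 56.4, 70.2 and 54.6 CPM in untreated b1, 132, 123 and 125 in untreated b2, 33.1 in the day 7 b1 library and 131, 98.2, 118 and 116 in day 7 b2. Its change was -0.28 ± 0.11 (SE, adjusted p = 0.0948 by edgeR), and the batches stood further apart than the days. JAK1 passed without day 7 b2-17, at -0.32 (edgeR adjusted p = 0.0493).

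None of the 6 transcription factors passed edgeR's test at day 7, and 2, STAT2 and IRF9, were under 0.05 before adjustment. STAT2, a subunit of ISGF3, stood at 33.1, 37.4 and 28.6 CPM in untreated b1, 24.0, 25.0 and 19.8 in untreated b2, 26.7 in the day 7 b1 library and 22.5, 15.8, 17.1 and 10.9 in day 7 b2. It came nearest to the threshold, with -0.43 ± 0.15 (SE, adjusted p = 0.0506 by edgeR), and it passed without day 7 b2-17, at -0.53 (edgeR adjusted p = 0.0155), and without untreated b1-3, at -0.46 (edgeR adjusted p = 0.0409). Its b2 groups overlapped through a single day 7 library at 22.5 CPM. IRF9, the DNA-binding partner of ISGF3, stood at 7.60, 9.74 and 5.54 CPM in untreated b1, 11.9, 8.20 and 8.64 in untreated b2, 5.98 in the day 7 b1 library and 6.42, 6.05, 8.03 and 7.36 in day 7 b2, and its log2 change was -0.41 ± 0.19 (SE, adjusted p = 0.151 by edgeR). In b2 every day 7 library of IRF9 was below every untreated one. IRF1, a factor that interferon gamma induces, stood at 48.8, 45.6 and 50.1 CPM in untreated b1, 53.6, 54.5 and 70.2 in untreated b2, 70.9 in the day 7 b1 library and 50.8, 44.7, 49.9 and 43.5 in day 7 b2. The day 7 b1 library was the highest of the 11 and the day 7 b2 libraries were all under the untreated b2 libraries, so that the batch-adjusted change was -0.06 ± 0.13 (SE, adjusted p = 0.797 by edgeR), and -0.30 (edgeR adjusted p = 0.0485) without the day 7 b1 library. IRF2, which opposes IRF1 at many promoters, stood at 30.1, 35.9 and 29.1 CPM in untreated b1, 23.3, 27.3 and 18.7 in untreated b2, 34.3 in the day 7 b1 library and 27.8, 19.6, 25.5 and 20.1 in day 7 b2, with 0.03 ± 0.13 (SE, adjusted p = 0.918 by edgeR). IRF3, which turns on interferon genes after viral sensing, stood at 88.0, 90.4 and 79.8 CPM in untreated b1, 62.9, 70.7 and 70.6 in untreated b2, 104 in the day 7 b1 library and 69.2, 64.0, 66.7 and 63.8 in day 7 b2, with 0.05 ± 0.08 (SE, adjusted p = 0.713 by edgeR). IRF7, which amplifies that response, stood at 28.4, 26.1 and 34.6 CPM in untreated b1, 24.8, 32.1 and 29.9 in untreated b2, 30.3 in the day 7 b1 library and 23.8, 27.4, 23.9 and 29.9 in day 7 b2, with -0.10 ± 0.12 (SE, adjusted p = 0.602 by edgeR). Intervals for the change of IRF2 (-0.24 to 0.29), IRF3 (-0.12 to 0.22) and IRF7 (-0.34 to 0.14) all held 0, and the signs of IRF2 and IRF3 turned when libraries were scaled by size alone.

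ISG15 is a ubiquitin-like protein that interferon induces, and UBE2L6 is the conjugating enzyme that carries it. UBE2L6 stood at 118, 109 and 107 CPM in untreated b1, 69.7, 83.8 and 90.0 in untreated b2, 90.1 in the day 7 b1 library and 60.4, 54.2, 56.5 and 63.8 in day 7 b2. Within each batch no day 7 library reached an untreated one, and the log2 change was -0.41 ± 0.09 (SE, adjusted p = 0.00186 by edgeR). ISG15 stood at 72.8, 65.1 and 69.2 CPM in untreated b1, 44.2, 55.0 and 61.9 in untreated b2, 60.2 in the day 7 b1 library and 48.4, 40.6, 48.0 and 49.3 in day 7 b2, with overlap in b2 and a log2 change of -0.20 ± 0.10 (SE, adjusted p = 0.172 by edgeR). The ubiquitin ligases of the group did not pass. TRIM21, which binds antibody-coated virus, had 0.06 ± 0.21 (SE, adjusted p = 0.882 by edgeR), and TRIM25, which modifies the sensor RIG-I, had 0.10 ± 0.10 (SE, adjusted p = 0.544 by edgeR). TRIM21 stood at 12.0, 10.5 and 12.2 CPM in untreated b1, 6.55, 7.11 and 6.12 in untreated b2, 10.8 in the day 7 b1 library and 12.0, 4.90, 5.76 and 7.14 in day 7 b2. Its groups overlapped in both batches, and its sign turned when libraries were scaled by size alone.

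Of 6 tested members that sense, edit or degrade RNA, 2 fell and 1 rose, where 7.28% of all genes tested fell and 8.43% rose. EIF2AK2 (PKR, chr2:37099210-37157065, minus strand), the kinase that stops translation on double-stranded RNA, stood at 57.6, 42.5 and 51.2 CPM in untreated b1, 35.0, 37.4 and 41.4 in untreated b2, 24.3 in the day 7 b1 library and 21.1, 26.2, 31.1 and 22.1 in day 7 b2. Its groups did not overlap in either batch, and its log2 change was -0.70 ± 0.13 (SE, adjusted p = 6.15e-04 by edgeR). OAS3, which makes the second messenger for RNase L, stood at 16.9, 17.1 and 14.0 CPM in untreated b1, 12.9, 16.0 and 15.1 in untreated b2, 15.5 in the day 7 b1 library and 10.2, 6.91, 8.20 and 9.37 in day 7 b2. The fall was seen in b2, where the groups did not overlap, while the day 7 b1 library lay among the untreated b1 libraries. The log2 change of OAS3 was -0.55 ± 0.16 (SE, adjusted p = 0.0215 by edgeR), and its call was lost without day 7 b2-18, day 7 b2-19, untreated b2-2 or untreated b2-4 (log2 change -0.51 to -0.45, edgeR adjusted p = 0.0531 to 0.11). ISG20 (chr15:88636153-88656483, plus strand), an exonuclease that degrades single-stranded RNA, stood at 19.4, 16.4 and 11.3 CPM in untreated b1, 22.3, 19.3 and 22.3 in untreated b2, 38.3 in the day 7 b1 library and 33.7, 26.8, 27.2 and 31.5 in day 7 b2. Every day 7 library was above every untreated library, and the log2 change of ISG20 was 0.72 ± 0.15 (SE, adjusted p = 0.00259 by edgeR), a 1.65-fold rise that held under each of the 20 alternatives run.

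**Figure D2:**
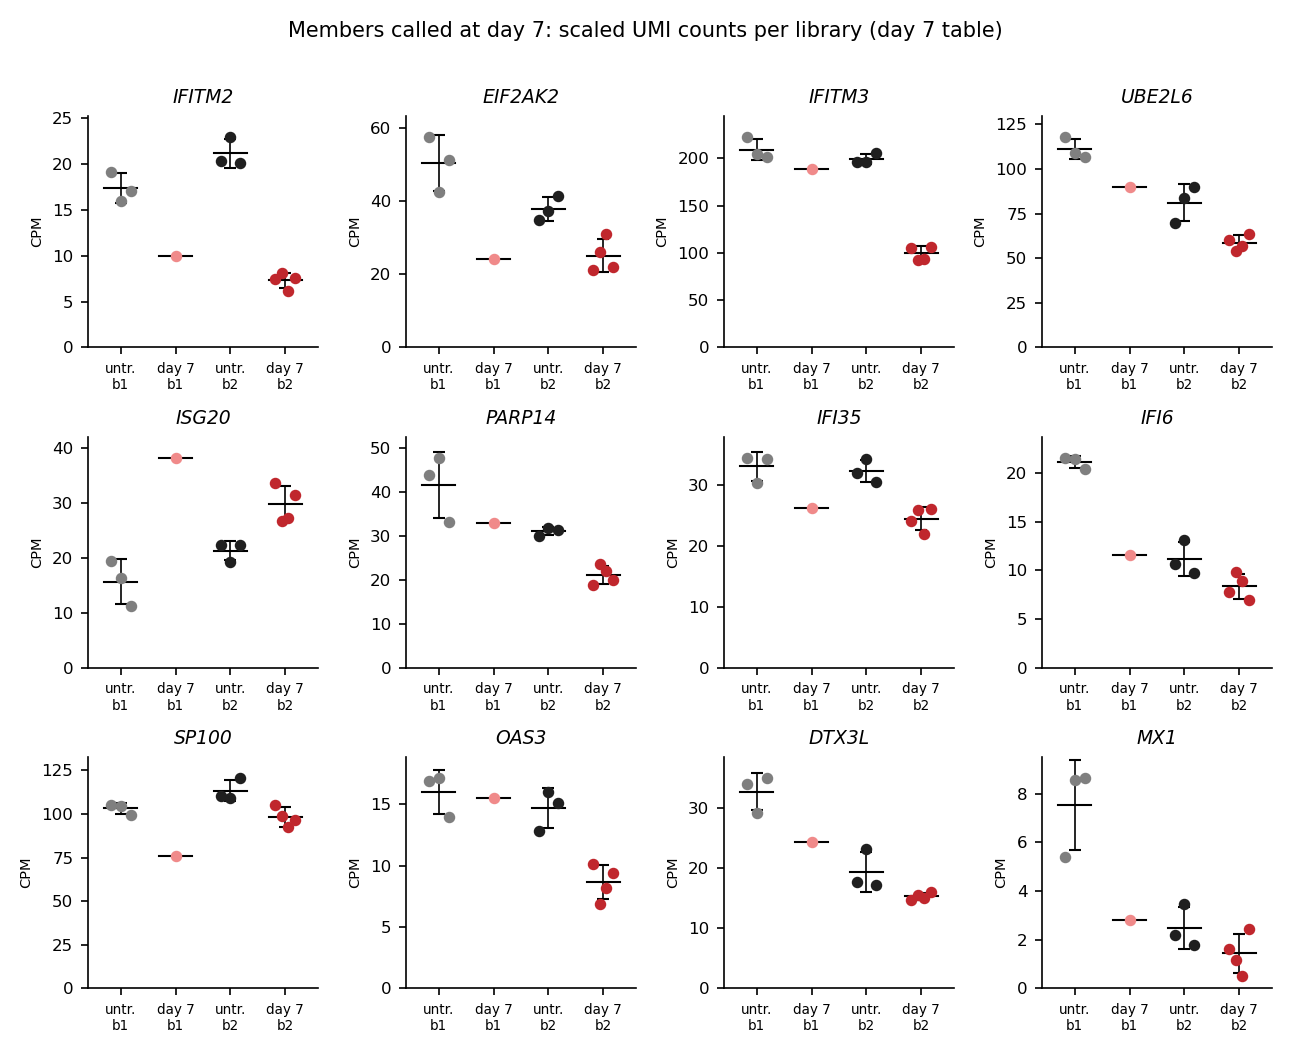
CPM (y axis, from 0) of the 12 members that passed the test at day 7, in each of the 11 libraries of the day 7 table (points), with the group mean (line) and SD (bar, not drawn for the single day 7 b1 library). Grey and black are untreated b1 and b2, pink and red day 7 b1 and b2. ISG20 is the member whose day 7 libraries all stand above the untreated ones.

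The sensors that feed interferon production had few UMIs. DDX58 (RIG-I), which senses viral RNA ends, stood at 8.58, 4.68 and 5.99 CPM in untreated b1, 4.13, 4.01 and 2.52 in untreated b2, 9.56 in the day 7 b1 library and 4.55, 6.63, 5.23 and 6.25 in day 7 b2. Its day 7 libraries were above the untreated libraries of their own batch, and its log2 change of 0.58 ± 0.22 (SE, adjusted p = 0.071 by edgeR) did not pass, except 0.68 (edgeR adjusted p = 0.0393) without untreated b1-1. IFIH1 (MDA5), which senses long double-stranded RNA, stood at 3.68, 5.85 and 6.87 CPM in untreated b1, 3.88, 3.83 and 2.88 in untreated b2, 3.59 in the day 7 b1 library and 2.41, 1.73, 2.27 and 1.12 in day 7 b2. The day 7 libraries of IFIH1 were below the untreated ones of their batch, and the log2 change of -0.83 ± 0.29 (SE, adjusted p = 0.0521 by edgeR) missed the threshold. It passed without untreated b1-1, at -0.89 (edgeR adjusted p = 0.0335). ADAR, which edits double-stranded RNA, stood at 132, 149 and 144 CPM in untreated b1, 196, 191 and 213 in untreated b2, 161 in the day 7 b1 library and 158, 177, 167 and 174 in day 7 b2. In b2 its day 7 libraries were all lower and in b1 the day 7 library was higher, with a batch-adjusted change of -0.12 ± 0.08 (SE, adjusted p = 0.326 by edgeR), and of -0.23 (edgeR adjusted p = 0.0327) without the day 7 b1 library.

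Of the 5 genes for ADP-ribosylation, 2 fell, where 7.28% of all genes tested fell. PARP14, a mono-ADP-ribosyltransferase, stood at 43.9, 47.9 and 33.3 CPM in untreated b1, 30.1, 31.9 and 31.3 in untreated b2, 33.1 in the day 7 b1 library and 19.0, 23.6, 22.0 and 20.1 in day 7 b2. The day 7 libraries were all below the untreated ones of the same batch, with a log2 change of -0.49 ± 0.12 (SE, adjusted p = 0.00551 by edgeR). DTX3L, a ubiquitin ligase that works as a pair with PARP9, stood at 34.1, 29.2 and 35.0 CPM in untreated b1, 17.7, 23.1 and 17.3 in untreated b2, 24.3 in the day 7 b1 library and 14.7, 15.6, 15.0 and 16.1 in day 7 b2, again with no overlap within a batch. Its log2 change was -0.39 ± 0.12 (SE, adjusted p = 0.0328 by edgeR), and its call was lost without day 7 b1-13, day 7 b2-17, day 7 b2-18, day 7 b2-19, untreated b1-1, untreated b1-3 or untreated b2-2 (log2 change -0.39 to -0.29, edgeR adjusted p = 0.0506 to 0.167). PARP9 stood at 9.80, 11.3 and 11.5 CPM in untreated b1, 9.47, 7.11 and 10.4 in untreated b2, 6.38 in the day 7 b1 library and 5.88, 6.91, 8.38 and 4.24 in day 7 b2, and its log2 change of -0.52 ± 0.20 (SE, adjusted p = 0.0739 by edgeR) did not pass. It passed without day 7 b2-19, at -0.68 (edgeR adjusted p = 0.0271), and without untreated b2-2, at -0.66 (edgeR adjusted p = 0.0451). PARP9 and DTX3L overlap in exons on opposite strands. The overlap lies within chr3:122564238-122564577, around their starts, while the method counts 3′ ends. No source used here says whether counting used strand, and whether either count holds reads of the other gene was not tested. PARP12 stood at 29.4, 27.3 and 28.6 CPM in untreated b1, 18.0, 23.1 and 19.1 in untreated b2, 30.7 in the day 7 b1 library and 20.1, 14.4, 21.1 and 17.6 in day 7 b2, with -0.06 ± 0.13 (SE, adjusted p = 0.791 by edgeR). PARP10 had 0.09 ± 0.25 (SE, adjusted p = 0.843 by edgeR), with the day 7 b1 library above all the others at 12.8 CPM.

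PML and SP100 build the nuclear bodies that restrict incoming DNA viruses. SP100 stood at 105, 105 and 99.6 CPM in untreated b1, 110.5, 109 and 121 in untreated b2, 75.7 in the day 7 b1 library and 105, 99.1, 92.3 and 96.4 in day 7 b2. The fall was small, with a log2 change of -0.27 ± 0.08 (SE, adjusted p = 0.0166 by edgeR), and its call was lost without day 7 b1-13 or untreated b2-4 (log2 change -0.25 to -0.19, edgeR adjusted p = 0.0571 to 0.0949). PML stood at 85.3, 72.5 and 80.5 CPM in untreated b1, 59.7, 57.8 and 57.6 in untreated b2, 82.9 in the day 7 b1 library and 51.6, 57.6, 56.5 and 64.7 in day 7 b2, with overlap in b2 and a log2 change of 0.00 ± 0.08 (SE, adjusted p = 0.977 by edgeR), an interval of -0.17 to 0.18.

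Of the other effectors, IFI6, IFI35 and MX1 fell. IFI35, which binds the protein NMI, stood at 34.6, 30.4 and 34.4 CPM in untreated b1, 32.0, 34.3 and 30.6 in untreated b2, 26.3 in the day 7 b1 library and 24.1, 25.9, 22.0 and 26.1 in day 7 b2, with no overlap within a batch and a log2 change of -0.39 ± 0.10 (SE, adjusted p = 0.0101 by edgeR). IFI6, a small membrane protein of the endoplasmic reticulum and mitochondria, stood at 21.6, 21.4 and 20.4 CPM in untreated b1, 10.7, 13.1 and 9.72 in untreated b2, 11.6 in the day 7 b1 library and 7.75, 9.80, 8.90 and 6.91 in day 7 b2. Its groups overlapped in b2, and the day 7 b1 library was under all untreated b1 libraries. Its log2 change was -0.57 ± 0.15 (SE, adjusted p = 0.0133 by edgeR), and its call was lost without day 7 b1-13 or untreated b2-2 (log2 change -0.51 to -0.44, edgeR adjusted p = 0.065 to 0.0941). MX1, a GTPase that traps viral nucleocapsids, had few molecules: 22, 22 and 39 UMIs in untreated b1, 9, 19 and 5 in untreated b2, 7 in the day 7 b1 library and 6, 4, 3 and 11 in day 7 b2. Scaled to depth, its groups overlapped in b2. The log2 change of MX1 was -1.07 ± 0.35 (SE, adjusted p = 0.0374 by edgeR), and its call was lost without day 7 b1-13, day 7 b2-18, day 7 b2-19, untreated b1-2, untreated b1-3 or untreated b2-2 (log2 change -1.04 to -0.86, edgeR adjusted p = 0.06 to 0.169). IFI27, with -0.44 ± 0.36 (SE, adjusted p = 0.442 by edgeR), and SAMD9, with -0.34 ± 0.48 (SE, adjusted p = 0.687 by edgeR), did not pass. IFIT3, the member of the IFIT family with enough UMIs to test, which binds other IFIT proteins on viral RNA, stood at 18.1, 12.9 and 18.8 CPM in untreated b1, 12.6, 14.8 and 13.3 in untreated b2, 15.5 in the day 7 b1 library and 14.7, 13.0, 11.0 and 13.4 in day 7 b2, with -0.09 ± 0.14 (SE, adjusted p = 0.713 by edgeR) and an interval of -0.39 to 0.20.

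Members with too few UMIs for the filter were not tested. BST2 (tetherin, which holds budding virus at the cell surface) had 3, 4 and 6 UMIs in untreated b1, 7, 7 and 6 in untreated b2, 0 in the day 7 b1 library and 0, 0, 1 and 1 in day 7 b2. Every day 7 library of BST2 was below every untreated one, and with no filter on low counts the gene passed (edgeR adjusted p = 0.00102). IFIT2 ranged from 0 to 10 UMIs and IFIT5 from 1 to 9 over the 11 libraries, and OAS1 from 0 to 9. IFITM1, listed only in the day 3 and day 7 table, had 6, 8 and 15 UMIs untreated, 3, 11, 11 and 7 at day 3 and 1, 3, 3 and 3 at day 7. With no filter it passed from day 3 to day 7 (edgeR adjusted p = 0.00299), and its exons overlap those of IFITM2 on the same strand.

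The change at day 7 was then read in each batch alone, from the same counts. Within b2, where 4 day 7 libraries stood against 3 untreated ones, 9 of 34 members fell and 1 rose (all genes: 7.94% and 7.74%). Within b1, where 1 day 7 library stood against 3, 3 fell and 2 rose (all genes: 3.66% and 3.85%), and the spread of the lone library was taken from the other groups. The b2 calls were IFITM2, IFITM3, UBE2L6, EIF2AK2, ADAR, OAS3, PARP14, IRF1 and IFI35 lower and ISG20 higher. Those of b1 were EIF2AK2, JAK1 and SP100 lower and ISG20 and IRF1 higher. In b2, 14 tested members had every day 7 library below every untreated one (13.1% of all genes tested) and 2, DDX58 and ISG20, had every one above (12.0%). Log2 changes were below 0 in both batches for 20 of 34 members (58.8%, against 32.8% of all genes tested), above 0 in both for 2, DDX58 and ISG20, and below 0 in b2 alone for 9.

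The difference of the day 7 change between batches was itself tested, and 2 of 34 members passed, both more negative in b2 (all genes: 1.12% more negative in b2 and 1.52% more positive). IFITM3 changed by -0.15 ± 0.12 (SE) in b1 and in b2 by a value whose 95% interval was -1.16 to -0.85, a difference of -0.85 ± 0.14 (SE, adjusted p = 5.39e-04 by edgeR). IRF1 changed by 0.55 ± 0.16 in b1 and by -0.31 ± 0.10 in b2, a difference of -0.87 ± 0.20 (SE, adjusted p = 0.0137 by edgeR). IFITM2, at -0.81 ± 0.28 and -1.56 ± 0.16, had a difference of -0.75 ± 0.34 (SE, adjusted p = 0.255 by edgeR). EIF2AK2, at -1.07 ± 0.23 and -0.57 ± 0.13, had one of 0.50 ± 0.27 (SE, adjusted p = 0.351 by edgeR). JAK1 had one of 0.72 ± 0.21 (SE, adjusted p = 0.0657 by edgeR) and passed without day 7 b2-17 or day 7 b2-18 (edgeR adjusted p = 0.0425 and 0.0363), and ISG20, with -0.81 ± 0.28 (SE, adjusted p = 0.111 by edgeR), passed without untreated b1-1 (edgeR adjusted p = 0.0450). All of these rest on the single day 7 library of b1, without which the difference cannot be fitted.

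**Figure D3:**
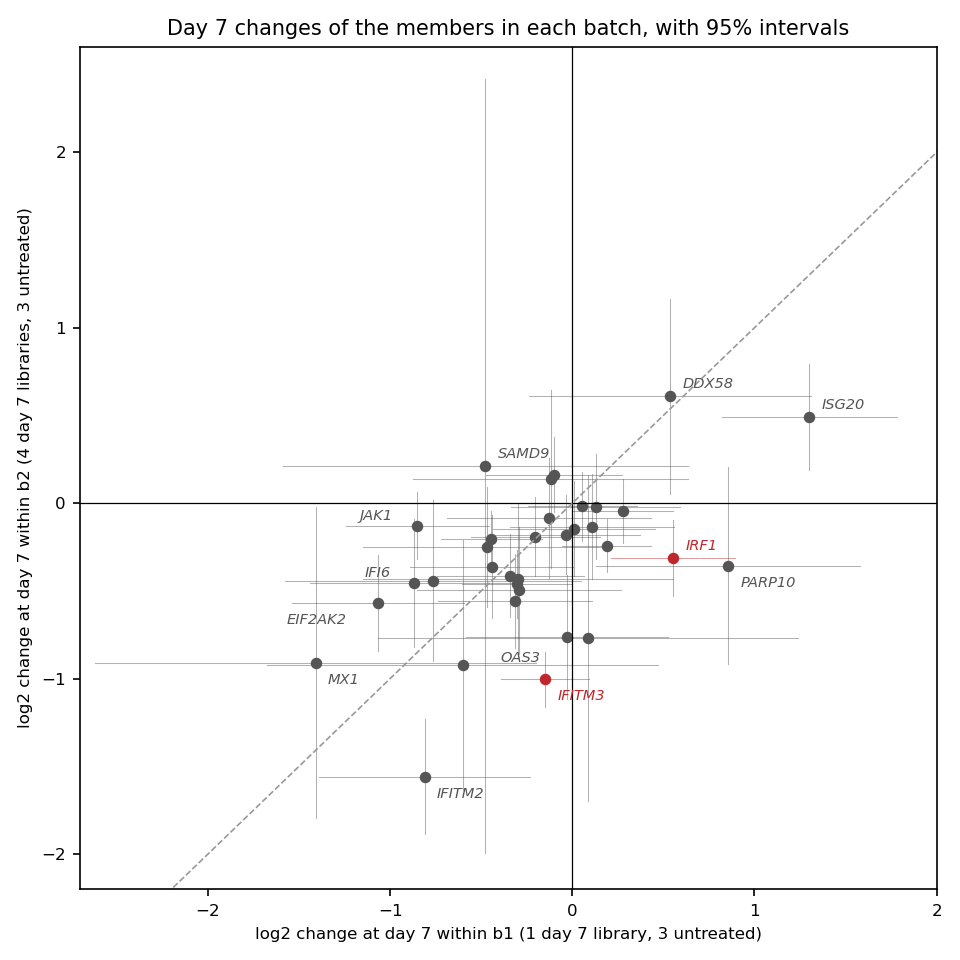
Log2 change at day 7 within b1 (x axis) and within b2 (y axis) for the 34 tested members, with 95% intervals; the dashed line marks equal changes. IFITM3 and IRF1, in red, are the members whose changes differed between the batches by the test.

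Day 3 of doxycycline changed few members. In the day 3 and day 7 table, where 31 members were tested and all libraries were b2, 3 fell and 0 rose against untreated cells, and 1.67% of all 10586 genes tested fell and 1.84% rose. At an unadjusted p under 0.05 the count was 7 of 31 (22.6%, against 16.5% of all genes tested), and DESeq2 called 2. The members that fell were IFITM2, IFITM3 and UBE2L6. The median log2 change over the 31 was -0.02, against 0.00 over all genes tested, and 6 members had every day 3 library below every untreated one (8.14% of all genes tested) while 2, IRF3 and ISG20, had every one above (8.6%).

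IFITM2 stood at 24.4, 25.0 and 27.6 CPM untreated, 16.9, 17.9, 15.3 and 17.8 at day 3 and 9.09, 9.72, 7.64 and 8.86 at day 7. The 3 groups were stacked without overlap, with a log2 change of -0.60 ± 0.15 (SE, adjusted p = 0.0223 by edgeR) at day 3 and of -0.96 ± 0.17 (SE, adjusted p = 3.57e-04 by edgeR) from day 3 to day 7. The day 3 call was lost without day 3 b2-11, untreated b2-X1 or untreated b2-X2 (log2 change -0.63 to -0.54, edgeR adjusted p = 0.053 to 0.142). IFITM3 stood at 253, 241 and 241 CPM untreated, 175, 179, 191 and 213 at day 3 and 129, 111, 116 and 125 at day 7, also in 3 separate groups, with -0.37 ± 0.08 (SE, adjusted p = 0.00481 by edgeR) at day 3 and -0.66 ± 0.07 (SE, adjusted p = 5.30e-07 by edgeR) from day 3 to day 7. Both changes of IFITM3 held under each of the 17 alternatives run. UBE2L6 stood at 110.0, 85.7 and 103 CPM untreated, 68.7, 78.2, 76.1 and 78.2 at day 3 and 74.0, 65.6, 69.6 and 74.5 at day 7. The day 3 libraries were all below the untreated ones and overlapped day 7, with -0.39 ± 0.10 (SE, adjusted p = 0.0176 by edgeR), and the change from day 3 to day 7 was -0.09 ± 0.09 (SE, adjusted p = 0.661 by edgeR). The day 3 call of UBE2L6 was lost without day 3 b2-9, untreated b2-4 or untreated b2-X2 (log2 change -0.36 to -0.33, edgeR adjusted p = 0.0601 to 0.117).

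Day 7 against day 3 lowered 4 of 31 members and raised 0, where 2.31% of all genes tested fell and 2.76% rose. Besides IFITM2 and IFITM3 these were PARP14 and DTX3L. At an unadjusted p under 0.05 the count was 11 (35.5%, against 18.4% of all genes tested), and DESeq2 called 4. The median log2 change was -0.14 against 0.01 over all genes tested, and 8 tested members had every day 7 library below every day 3 library (5.47% of all genes tested) and none above (6.17%). PARP14 stood at 27.8, 30.3 and 30.1 CPM untreated, 26.5, 35.1, 28.4 and 33.2 at day 3 and 17.8, 22.6, 20.4 and 20.3 at day 7. The day 3 libraries overlapped the untreated ones and the day 7 libraries lay below both, with 0.07 ± 0.13 (SE, adjusted p = 0.842 by edgeR) at day 3 and -0.62 ± 0.13 (SE, adjusted p = 0.00329 by edgeR) from day 3 to day 7. DTX3L stood at 20.9, 19.9 and 25.6 CPM untreated, 31.5, 27.4, 22.1 and 22.9 at day 3 and 16.9, 17.0, 17.0 and 18.5 at day 7, again with day 3 overlapping the untreated libraries and day 7 below both, with 0.20 ± 0.15 (SE, adjusted p = 0.551 by edgeR) and -0.57 ± 0.15 (SE, adjusted p = 0.0171 by edgeR). The later call of DTX3L was lost without day 3 b2-10 or day 3 b2-9 (log2 change -0.54 to -0.48, edgeR adjusted p = 0.0679 to 0.0794).

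Other members showed the b2 time points without passing either step. EIF2AK2 stood at 10.4, 9.82 and 10.7 CPM untreated, 6.20, 4.39, 10.8 and 2.76 at day 3 and 5.84, 5.56, 7.43 and 3.65 at day 7, with -0.81 ± 0.30 (SE, adjusted p = 0.15 by edgeR) at day 3, and it passed there without day 3 b2-11, at -1.27 (edgeR adjusted p = 0.0216). OAS3 stood at 13.5, 11.3 and 12.9 CPM untreated, 7.32, 11.0, 8.56 and 10.7 at day 3 and 7.46, 5.21, 6.37 and 8.34 at day 7, with -0.39 ± 0.21 (SE, adjusted p = 0.366 by edgeR) at day 3 and -0.47 ± 0.22 (SE, adjusted p = 0.235 by edgeR) from day 3 to day 7. STAT2 stood at 21.3, 26.5 and 27.2 CPM untreated, 22.5, 23.4, 22.5 and 28.0 at day 3 and 23.0, 17.0, 18.2 and 13.3 at day 7, with -0.45 ± 0.16 (SE, adjusted p = 0.1 by edgeR) from day 3 to day 7, and -0.58 (edgeR adjusted p = 0.0187) without day 7 b2-17. IRF3, at -0.26 ± 0.09 (SE, adjusted p = 0.0767 by edgeR) between those days, also passed without that library, at -0.31 (edgeR adjusted p = 0.0352). ISG20 stood at 25.7, 26.8 and 23.2 CPM untreated, 29.9, 27.8, 31.5 and 29.2 at day 3 and 39.3, 30.9, 32.3 and 35.4 at day 7: day 3 was above untreated in every library, with 0.24 ± 0.13 (SE, adjusted p = 0.384 by edgeR), and the change to day 7 was 0.22 ± 0.12 (SE, adjusted p = 0.331 by edgeR). Over the whole span of this table, day 7 against untreated, 9 members fell and 1 rose (all genes: 7.31% and 8.27%), among them STAT2 (-0.51 ± 0.16, edgeR adjusted p = 0.0264), ADAR (-0.23 ± 0.07, edgeR adjusted p = 0.0272) and OAS3 (-0.86 ± 0.21, edgeR adjusted p = 0.00438). The comparisons of day 3 and day 7 share untreated or day 7 libraries, so their values are set side by side and not counted as separate evidence.

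**Figure D4:**
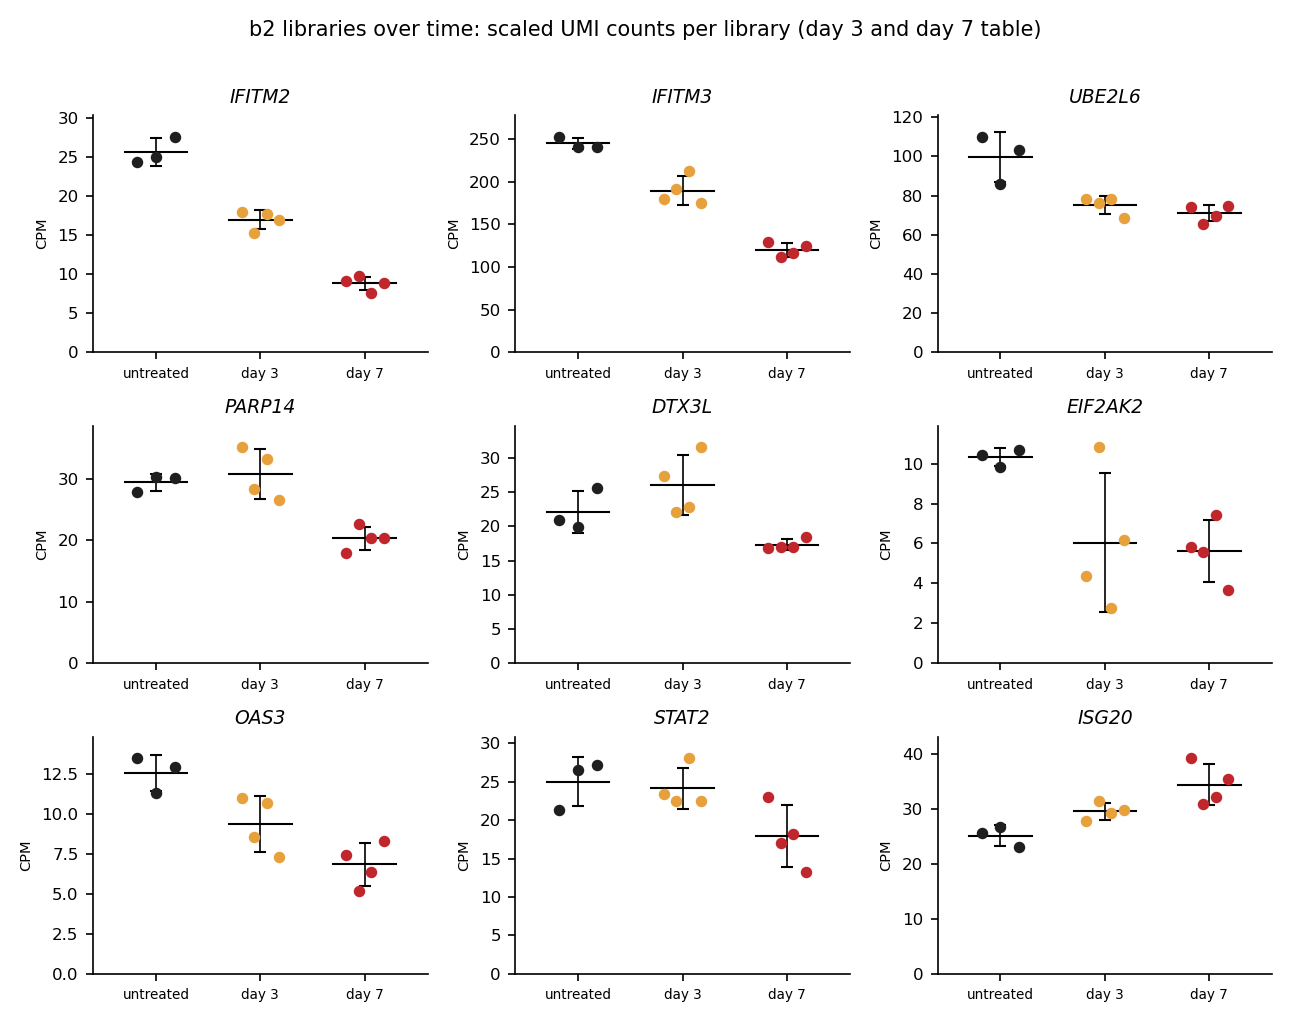
CPM (y axis, from 0) of 9 members in the untreated, day 3 and day 7 libraries of b2 (x axis) in the day 3 and day 7 table, with group mean (line) and SD (bar). IFITM2 and IFITM3 step down at both days, UBE2L6 at day 3, and PARP14 and DTX3L only after day 3 by the test.

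The libraries' members as a group can be set against their own untreated cells. Of 34 members tested in the day 7 table, 23 were below the mean of the untreated libraries of the same batch in the day 7 b1 library, and 25 to 30 were in the day 7 b2 libraries, with median differences of -0.17 and of -0.31 to -0.24 on the log2(CPM + 1) scale. The same medians over all genes tested were -0.02 to 0.00. In the day 3 libraries 17 to 19 of 31 members were below, with medians of -0.06 to -0.05. Summed over the tested members, the level was 1356 to 1464 CPM in the untreated libraries, 1324 in the day 7 b1 library and 1097 to 1174 in the day 7 b2 libraries, a sum to which IFITM3 adds 91.9 to 223 CPM.

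Without doxycycline 61.8% of the tested members differed between the batches, as did 46.6% of all genes tested. At day 7 against untreated these shares were 35.3% and 15.7%. In untreated b2 against untreated b1, 15 of 34 members were lower and 6 higher, in a comparison where 23.2% of all genes tested were lower and 23.4% higher. Groups did not overlap for 15 tested members lower in b2 (28.0% of all genes tested) and for 6 higher (28.0%). The largest of the higher members was JAK1 (log2 1.09 ± 0.11 SE, edgeR adjusted p = 5.72e-09), then ADAR (log2 0.50 ± 0.08 SE, edgeR adjusted p = 1.49e-05), IFNGR1 (log2 0.48 ± 0.19 SE, edgeR adjusted p = 0.0367), IFNAR1 (log2 0.45 ± 0.12 SE, edgeR adjusted p = 0.0036), ISG20 (log2 0.45 ± 0.17 SE, edgeR adjusted p = 0.0366) and IRF1 (log2 0.28 ± 0.11 SE, edgeR adjusted p = 0.0451). They hold all 3 receptor and kinase genes among the members, but of 5 other receptor and kinase genes tested, IFNAR2 was higher in b2 and IL10RB and TYK2 were lower, with a median of -0.26. The b2 counts of JAK1, IFNAR1 and IRF1 also depended on the table. The day 3 and day 7 table held 55.6%, 49.1% and 16.4% of their b2 UMIs. Mean JAK1 in untreated b2 was 127 CPM in the day 7 table and 80.3 CPM in the other, against 60.4 CPM in untreated b1.

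The lower members had several roles. SAMD9, an antiviral factor that senses poxviruses, had 33, 19 and 35 UMIs in untreated b1 and 0, 0 and 3 in untreated b2, and 14 in the day 7 b1 library and 1, 3, 1 and 0 in day 7 b2, so that every b2 library was under every b1 library. Its log2 difference between the untreated batches was -4.82 ± 0.60 (SE). SAMD9 passed the filter on low counts through its b1 libraries, where it was high. Its place among the lower members is therefore no separate support. OAS1 had 7, 6 and 9 UMIs in untreated b1 and 0 in each untreated b2 library, and was not tested. MX1 had a log2 difference of -1.49 ± 0.35 (SE, adjusted p = 9.24e-04 by edgeR) and IFI6 one of -0.88 ± 0.17 (SE, adjusted p = 1.16e-04 by edgeR). In the day 3 and day 7 table, all taken as b2, MX1 had too few UMIs to be tested. DDX58 had -0.83 ± 0.29 (SE, adjusted p = 0.0183 by edgeR), TRIM21 -0.81 ± 0.25 (SE, adjusted p = 0.00931 by edgeR) and DTX3L -0.74 ± 0.14 (SE, adjusted p = 1.08e-04 by edgeR). The other 9 were STAT2, PARP12, UBE2L6, PML, EIF2AK2, IRF2, PARP14, ISG15 and IRF3, from -0.49 (PARP12) to -0.34 (IRF3). IFITM2 and IFITM3, which both fell at day 7, did not pass between batches (0.28 ± 0.15 (SE, adjusted p = 0.135 by edgeR) and -0.07 ± 0.08 (SE, adjusted p = 0.481 by edgeR)). THY1, PDGFRB and PDGFRA, markers of fibroblasts and pericytes, summed to 79.8 to 93.9 CPM in untreated b1 and 279 to 297 in untreated b2. Most of the b2 sum was THY1. Over all libraries of the day 7 table THY1 ranged from 35.9 to 279.8 CPM, PDGFRB from 13.4 to 39.7 and PDGFRA from 0.49 to 6.05. The sum therefore does not show which way PDGFRB or PDGFRA differed, and the markers' part in these differences was not tested.

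Of these 21 calls, 11 held when each library was left out in turn. Without day 7 b1-13 the edgeR adjusted p was 0.0603 for IRF1. Without day 7 b2-18 the edgeR adjusted p was 0.0506 for IRF1. Without untreated b1-1 the edgeR adjusted p was 0.159 for DDX58, 0.0721 for EIF2AK2, 0.105 for IRF1, 0.061 for PARP14 and 0.0629 for STAT2. Without untreated b1-2 the edgeR adjusted p was 0.152 for IFNGR1, 0.126 for IRF1, 0.135 for IRF2, 0.0545 for ISG20, 0.0929 for PARP14 and 0.106 for STAT2. Without untreated b1-3 the edgeR adjusted p was 0.0663 for IFNGR1, 0.0668 for IRF1 and 0.32 for ISG20. Without untreated b2-1 the edgeR adjusted p was 0.0509 for EIF2AK2, 0.13 for IFNGR1, 0.0784 for IRF2, 0.0869 for ISG15, 0.102 for ISG20, 0.0531 for PARP12 and 0.0548 for STAT2. Without untreated b2-4 the edgeR adjusted p was 0.068 for DDX58, 0.135 for IFNGR1, 0.268 for IRF1, 0.149 for IRF2, 0.083 for ISG20 and 0.0969 for STAT2. Besides, IFIH1 passed without untreated b1-1 (edgeR adjusted p = 0.0445) and IFI27 without untreated b1-2 or untreated b2-4 (edgeR adjusted p = 0.0329 and 0.0482). With the replicate block, 11 members passed in place of 21, 2 higher and 9 lower.

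**Figure D5:**
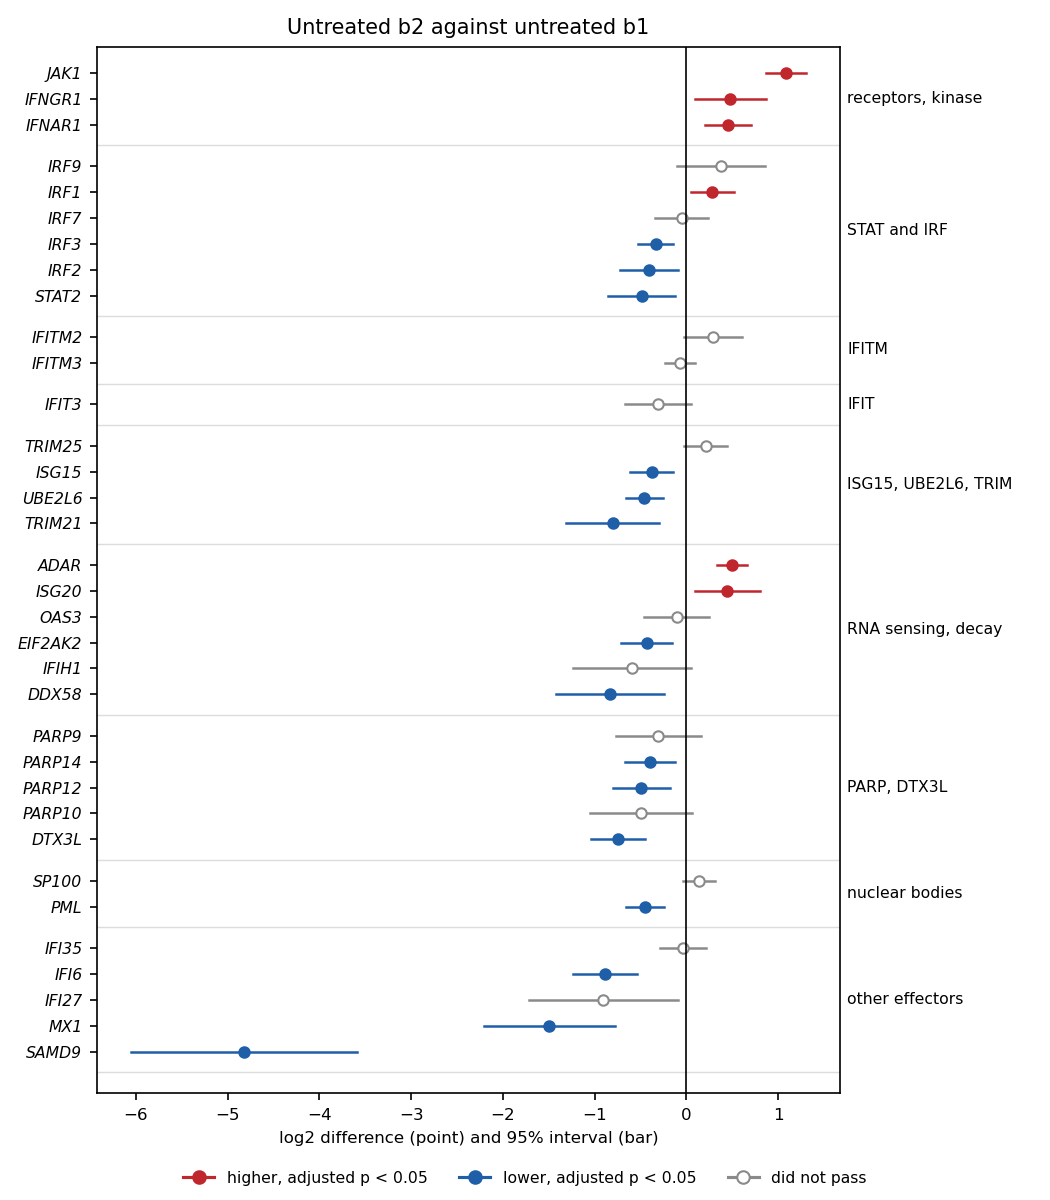
Log2 difference of each tested member between untreated b2 and untreated b1 (x axis, points with 95% intervals), grouped by role (y axis). All 3 receptor and kinase genes lie above 0, while SAMD9, at -4.82, and MX1 lie farthest below. SAMD9 passed the filter on low counts through its b1 libraries, where it was high.

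A wider list of 157 other genes of the pathway, grouped by role, was read in the same fits. None of 21 interferon ligands, the IFNA family and IFNB1 among them, was listed in either table. Of the genes outside the members, 91 were tested at day 7, with a median log2 change of -0.13, and 15 passed (16.5%), a share near the 15.7% of all genes tested. None of 5 receptor and kinase genes tested passed edgeR's test, IFNAR2 (log2 -0.12 ± 0.09 SE, edgeR adjusted p = 0.435) and TYK2 (log2 -0.22 ± 0.09 SE, edgeR adjusted p = 0.0875) among them. Of 11 feedback inhibitors tested, 2 rose and 0 fell, where 8.43% of all genes tested rose and 7.28% fell. SOCS1, which blocks the JAK kinases, stood at 6.13, 4.29 and 5.10 CPM in untreated b1, 1.94, 4.55 and 1.08 in untreated b2, 12.0 in the day 7 b1 library and 6.15, 6.05, 6.63 and 5.13 in day 7 b2, and rose by 1.12 ± 0.25 (SE, adjusted p = 0.00343 by edgeR) on the log2 scale. SOCS3, which blocks signalling by gp130 cytokines, stood at 49.7, 62.7 and 55.4 CPM in untreated b1, 60.2, 68.3 and 70.2 in untreated b2, 82.5 in the day 7 b1 library and 70.0, 89.3, 89.9 and 81.2 in day 7 b2, and rose by 0.39 ± 0.09 (SE, adjusted p = 0.0052 by edgeR). At day 3 SOCS3 had already risen, by 0.44 ± 0.09 (SE, adjusted p = 0.00589 by edgeR), and SOCS1 had 0.91 ± 0.31 (SE, adjusted p = 0.105 by edgeR).

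Among 16 tested sensors and adaptors, MAVS, the mitochondrial adaptor of RIG-I and MDA5, fell (log2 -0.35 ± 0.11 SE, edgeR adjusted p = 0.029), RNASEH2A fell (log2 -0.41 ± 0.14 SE, edgeR adjusted p = 0.0491) and IKBKE, a kinase of IRF3, rose (log2 0.61 ± 0.14 SE, edgeR adjusted p = 0.00562). These 3 were 18.8% of the 16, a share near the 15.7% of all genes tested. Of 54 other interferon-induced genes tested, 9 fell and 0 rose, with a median of -0.22, where 7.28% of all genes tested fell and 8.43% rose. Between the untreated batches 10 of these 54 were higher in b2 and 6 lower, with a median of 0.05. The 9 that fell at day 7 were APOL1 (-1.48 ± 0.42), DDX60 (-1.07 ± 0.30), GBP1 (-0.84 ± 0.14), USP25 (-0.67 ± 0.17), APOBEC3G (-0.59 ± 0.18), NMI (-0.55 ± 0.12), GBP3 (-0.32 ± 0.10), LGALS3BP (-0.32 ± 0.09) and TRIM56 (-0.27 ± 0.09). Their edgeR adjusted p values at day 7 ran from 3.76e-04 (GBP1) to 0.0457 (TRIM56). GBP1 is a GTPase that attacks vacuoles of intracellular pathogens, and NMI is the partner of IFI35. In the day 3 comparison 2 of 51 fell, WARS1 (log2 -0.54 ± 0.08 SE, edgeR adjusted p = 5.62e-05) and SLFN5 (log2 -0.82 ± 0.23 SE, edgeR adjusted p = 0.0369), and 0 rose, where 1.67% of all genes tested fell and 1.84% rose.

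The b2 libraries that both tables hold did not have the same counts in each. Of 36 members listed in both, 24 had summed UMIs within 10% of each other, and 4 had under 2/3 of the day 7 table's UMIs in the other table. These were IRF1, from 1541 UMIs to 252 (16.4%), EIF2AK2, from 911 to 188 (20.6%), IFNAR1, from 1006 to 494 (49.1%), and JAK1, from 3591 to 1995 (55.6%). IRF9 went the other way, from 242 to 337 (139%). IFITM2 and IFITM3 held 99.7% and 101% of their UMIs. For EIF2AK2 the day 7 change in b2 was -0.57 ± 0.13 from the first table and -0.86 ± 0.28 from the second, and both passed. For IRF1 it was -0.31 ± 0.10, which passed (edgeR adjusted p = 0.0415), and -0.49 ± 0.23, which did not (edgeR adjusted p = 0.164). IFNAR1 and JAK1 passed in neither table and changed sign between them. IFNAR1 had -0.18 ± 0.11 and 0.21 ± 0.16, and JAK1 had -0.13 ± 0.09 and 0.01 ± 0.11. IRF1, EIF2AK2 and JAK1 each overlap the exons of a gene on the opposite strand (C5orf56, GPATCH11 and RAVER2 among them). So do IRF3, TRIM25, PARP10, ISG15, IFITM3, SP100, PARP9, DTX3L and IFIT2, which held 88.1% to 101% of their UMIs, and MX1, which held 73.7%. No such overlap was found for IFNAR1, nor for OAS3 (68.0%), PARP14 (78.8%), IRF2 (79.9%) or IRF9. Whether that overlap bears on the difference between the tables was not tested.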

How the data were processed

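Values are UMI counts per gene and library, in 2 tables that the authors deposited. Reads were handled with bcl2fastq, cutadapt, STAR 2.4.2a, HTSeq and DESeq2 on hg38, per the submitters' processing notes; their roles, and whether counting used strand, are not given in the sources used here. The listed genes have at least 6 counts in some library. The 55 columns of other per-sample values and the authors' own comparisons were not used. Groups and batch tags came from the sample labels.

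Each table was fitted on its own with edgeR 4.0.16 (R 4.3.3): filterByExpr, TMM scaling, and the robust quasi-likelihood test, with Benjamini-Hochberg adjustment over all genes tested and a threshold of 0.05. The day 7 comparison in the day 7 table had batch as a term. A second fit of that table, with 4 group means, gave the comparison of untreated batches, the within-batch values and their difference. Each SE of a fitted change was worked back from the test, as the size of the log2 change divided by the square root of its F statistic, and the intervals rest on it. CPM values are UMI counts per 1000000 after TMM scaling. Error bars and intervals are 95% for fitted changes and SD for levels. Depths differ by library, and genes of few UMIs have wide intervals. Alternatives were DESeq2 1.42.0, limma-voom (limma 3.58.1), other scalings and filters, no batch term, b2 alone, the other table's counts, a replicate block, and leaving out each library. Fits were tested on simulated data. Promoters are from the RefSeq table for GRCh38.p14, and gene positions and overlaps from the GRCh38 annotation.

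The members and gene lists were chosen with earlier results of these data known. Values in every library are given for members that passed in at least 1 comparison and for receptors, kinases and transcription factors, and other members by range or count. Genes outside the members are named from the lists where they passed, and the ligands always; 1 such gene is not reported here.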

Additional observations from a re-analysis of the deposited data

Results flagged for a closer look

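In 6 of 96 groups of 4 libraries, 1 library stood far from the other 3, and chance alone gives about 1 in 20 such groups. ISG15 was at 40.6 CPM in day 7 b2-18 against 48.0 to 49.3 in the other day 7 b2 libraries of the day 7 table, and at 50.4 against 58.4 to 58.8 in the day 3 and day 7 table. In the latter table IFNAR1 was at 18.0 CPM in day 7 b2-20 against 22.1 to 22.7, and DTX3L was at 18.5 in the same library against 16.9 to 17.0. STAT2 was at 28.0 CPM in day 3 b2-12 against 22.5 to 23.4, and IRF2 was at 19.4 in day 3 b2-10 against 27.2 to 28.2.

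The day 7 change differed between the batches, by the test of the difference, for IFITM3 (b2 minus b1 -0.85 on the log2 scale) and IRF1 (-0.87). Both rest on 1 day 7 library in b1.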

How the results depend on the processing

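Of 12 members called at day 7, 5 (EIF2AK2, IFI35, IFITM2, IFITM3 and ISG20) passed under every one of the 20 alternatives, and 9 to 13 members were called when a library was left out. Without a batch term 5 members were called; the cause was not tested. Counts under the other alternatives ran from 8, with b2 libraries alone, to 15, with library size alone. At day 3 the count was 3, and 1 to 3 with a library left out, with 1 without untreated b2-X2. From day 3 to day 7 it was 4, and 3 to 6. Between untreated batches it was 21, and 14 to 21. There DDX58, IFNGR1, IRF1, IRF2, ISG20 and PARP14 did not pass by DESeq2, nor IFNGR1 and IRF1 by limma-voom. The difference of the day 7 change was called in 2, and 2 or 3, and could not be fitted without day 7 b1-13. No called member changed sign under any alternative run.

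Replicate numbers 1 and 2 are shared only by the untreated libraries of both batches, and nothing in the labels says that they pair samples. With that replicate block 11 members were called between the untreated batches, 2 higher and 9 lower, in place of 21.

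Members of few UMIs, such as MX1, SAMD9 and IFI27, are limited by depth. The counts of b2 libraries differ between the tables, and the reason was not tested.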
